A study of Mus musculus with 6 samples.

Results

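The genes of serine, proline and folate-linked one-carbon synthesis were followed through red cell formation in mouse fetal liver. The set comprises 10 genes: Phgdh, Psat1, Psph, Shmt1, Shmt2, Mthfd1, Mthfd2, Mthfd1l, Aldh18a1 and Pycr1. They were taken as every probe set, a group of short array probes for one transcript, that the platform annotation assigns to one of these genes alone. This gave 26 of 45101 probe sets and 9 of the 18193 genes with a probe set of their own. Pycr1 has none under this rule and is not analysed here. Expression was measured in sorted cells of whole fetal livers of Balb/C embryos, 3 arrays of the S3 subset and 3 of the S1 subset, each array from a separate sorting day. Sorting used antibodies to CD71, the receptor for transferrin, to Ter119, which marks maturing red cells, and to lineage markers. S3 holds the more mature and S1 the less mature red cell precursors of this sorting scheme. The design text gives the embryos' age as embryonic day 12.5 to 13.5. The stage label gives day 13.5 for S3 and day 12.5 for S1, while the source label gives day 13.5 for all 6 arrays. Maturity and embryo age can therefore not be told apart here.

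Serine is made from an intermediate of glycolysis in a short chain of reactions catalysed by the products of Phgdh, Psat1 and Psph. Serine hydroxymethyltransferases (Shmt1 in the cytosol, Shmt2 in mitochondria) then split it into glycine and a one-carbon unit carried by folate. Mthfd2 and Mthfd1l carry that unit through the mitochondrial folate forms to formate, and Mthfd1 takes up formate in the cytosol, where one-carbon units feed purine and thymidylate synthesis. Aldh18a1 makes the precursor of proline and ornithine from glutamate, and Pycr1 completes proline. In red cell precursors glycine is also a substrate of heme synthesis, which begins with the enzyme Alas2.

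The values are the authors' log2 signals, in which a difference of 1 is a change of 2-fold. Background, the 95th percentile of 27 control probe sets for bacterial transcripts, lay between 1.01 and 1.74 on the 6 arrays, and all 26 probe sets of the set were above it on every array. In the actin control, the signal near the 5' end of the transcript was below that at the 3' end by a log2 difference of -2.20 in S3 replicate 2, -2.08 in S1 replicate 1 and -2.59 in S1 replicate 2 (the short arrays). It was -0.45 and -0.56 in S3 replicates 1 and 3 and -0.47 in S1 replicate 3 (the long arrays). Of the 26 probe sets, 21 read lower on the short than on the long arrays within S3, and 23 did so within S1. The median of the whole array was lower on the short arrays too. In S3 it was 1.83 on the short array and 2.17 and 2.55 on the long ones. In S1 it was 1.98 and 2.33 on the short arrays and 2.94 on the long one. The share of all probe sets lower on short arrays is not given here. Over probe sets brighter than the 40th percentile, Pearson's r between arrays was at least 0.901 within a subset and at most 0.919 between subsets. Red cell identity was checked on 8 markers, of which 4 rose in S3 (Alas2, Hbb-bh1, Slc4a1 and Hbb-y) and none fell. Tfrc, Klf1, Epor and Gata1 were not called. Of 4 markers of early progenitors, Kit, Myb and Gata2 were tested and all fell, and Cd34 was not tested. Of all genes tested, 2.53% rose and 12.8% fell. Macrophage markers had a summed linear signal of 36.2 to 90.9 in S3 and 28.3 to 117 in S1. Adgre1, a defining surface antigen, and C1qc were at background on all arrays. C1qb was above background on every array, with log2 signals of 3.67 to 6.05 in S3 and 2.94 to 6.61 in S1. Hepatocyte markers summed to 251 to 999 in S3 and 284 to 338 in S1, with none of 7 tested called. With array class (short or long) as a block, Ttr and Apoa2 were called higher, where 5.81% of all genes were. With each array centred on its median (median centring), Ttr alone of the 7 was called higher, where 4% of all genes were. Granulocyte markers summed to 10.8 to 73.0 in S3 and 18.1 to 53.5 in S1, with Elane and Ctsg at background throughout; of 3 tested, Prtn3 fell in S3 (-2.94 ± 0.54 (SE), limma adjusted p = 0.0127). Megakaryocyte markers summed to 326 to 346 in S3 and 76.7 to 174 in S1, with none of 5 tested called. Gp9, Ppbp and Pf4 were called higher with array class as a block (5.81% of all genes) and also with median centring (4% of all genes). The part of these cell types in the results below was not tested.

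Levels in S3 were set against those in S1. Of 9 genes tested, each by its brightest probe set, 5 fell in S3: Phgdh, Psat1, Shmt2, Mthfd1 and Aldh18a1. None rose, and Psph, Shmt1, Mthfd1l and Mthfd2 did not pass the test (limma, Benjamini-Hochberg adjusted p under 0.05). Over all 11959 genes tested, 12.8% were called lower and 2.53% higher. The median log2 change was -0.84 for the 9 genes and -0.33 for all genes tested, a difference of -0.50. Every S3 array lay below every S1 array for 6 of the 9 genes, against 29.5% of all genes, and above it for 1, Mthfd2, against 5.81% of all genes. Over probe sets, 12 of 26 fell and none rose, where 8.12% of 22428 probe sets fell and 1.82% rose, and 24 of the 26 had a negative change. By the array maker's suffix, 7 of 12 x_at, 2 of 8 plain at, 2 of 4 a_at and 1 of 2 s_at probe sets fell. The suffix x_at marks probes that can also match other transcripts. Every S3 array lay below every S1 array for 17 of the 26 probe sets, against 25.1% of all probe sets, and above it for 1, against 5.35%. The arrays read pooled sorted cells, so fewer cells that express a gene and less RNA per cell cannot be told apart. The count depended on how the arrays were scaled. With each array centred on its median, Mthfd1 alone of the 9 genes was called lower (8.13% of all genes). With array class (short or long) as a block, 8 of 9 genes were called lower, all but Mthfd2, against 41.2% of all genes, and none higher, against 5.81%. With both choices together, 2 of 9 genes were called lower (16.8% of all genes), Phgdh and Mthfd1, and none higher (8.56%). Over probe sets, median centring gave 2 lower and none higher of 26, where it gave 5.4% and 3.31% of all probe sets. The array class block with median centring gave 13 lower and 1 higher, where it gave 13.2% and 7.13% of all probe sets.

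**Figure D1:**
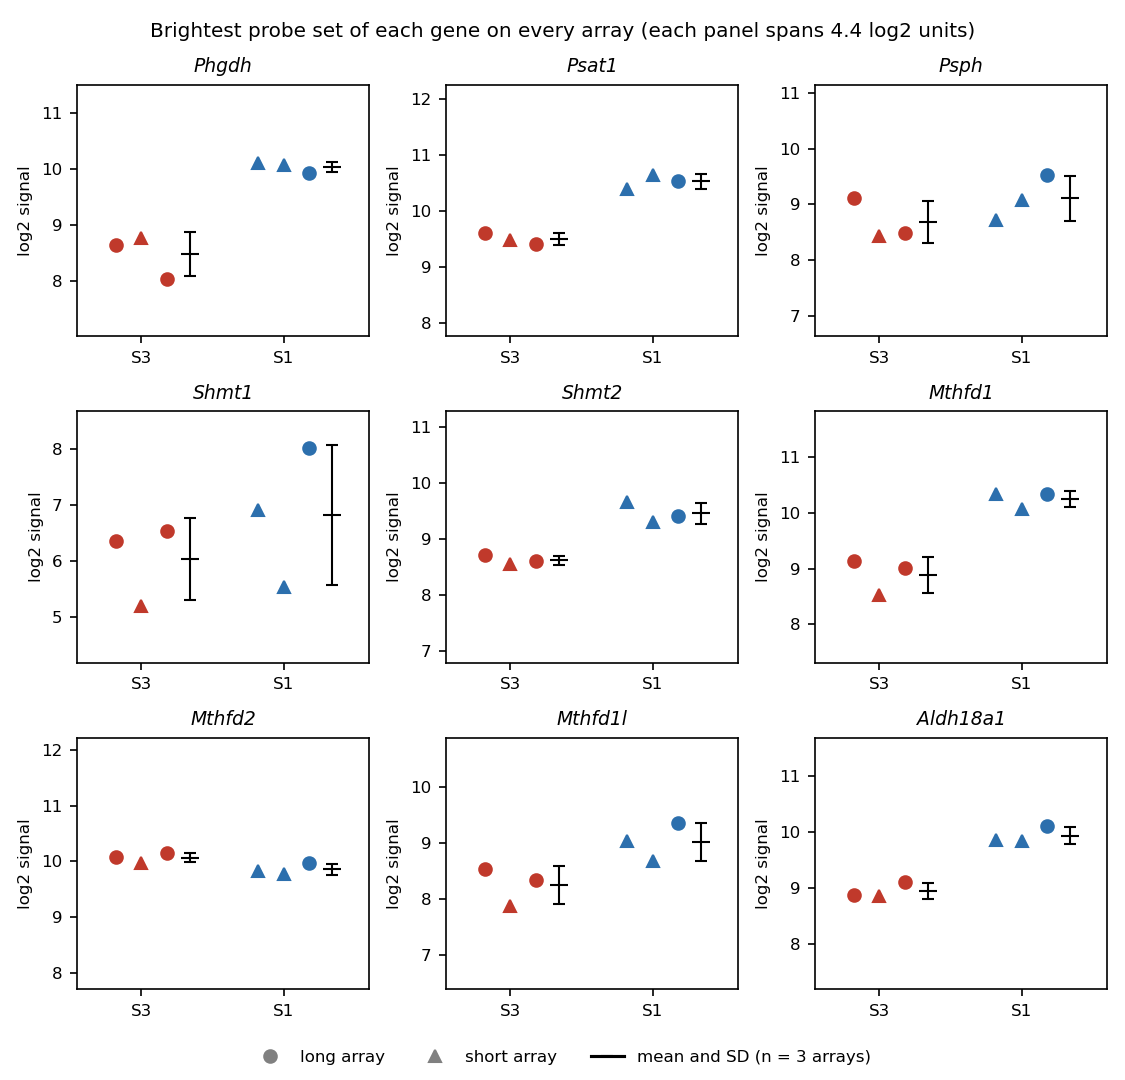
Log2 signal (vertical axis) of the brightest probe set of each of the 9 genes on the 3 S3 arrays (red, left) and the 3 S1 arrays (blue, right). Circles are long and triangles short arrays, and the black bar is the mean with its SD over 3 arrays. The S3 arrays lie below all S1 arrays for Phgdh, Psat1, Shmt2, Mthfd1, Mthfd1l and Aldh18a1, and just above them for Mthfd2.

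RefSeq promoter windows (build GRCm38.p6, 250 bases before to 50 after a start) were found for all 10 genes, in 11 windows. The upstream 250 bases are printed for 3 genes that fell, Phgdh, Psat1 and Aldh18a1, and for Mthfd2, which did not, so that the letters before genes of unlike change can be read side by side. Capitals mark CCAAT boxes (CCAAT, or ATTGG on the other strand) and the E-box CACGTG. For Psat1, which has 2 windows, the one that holds a CCAAT box is shown.
Phgdh, chr3:98339970-98340219, minus strand: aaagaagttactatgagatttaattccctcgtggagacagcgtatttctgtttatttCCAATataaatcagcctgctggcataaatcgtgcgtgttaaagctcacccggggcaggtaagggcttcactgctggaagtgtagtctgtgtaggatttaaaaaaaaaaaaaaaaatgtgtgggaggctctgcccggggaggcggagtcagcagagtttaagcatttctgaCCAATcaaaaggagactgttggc
Psat1, chr19:15925060-15925309, minus strand: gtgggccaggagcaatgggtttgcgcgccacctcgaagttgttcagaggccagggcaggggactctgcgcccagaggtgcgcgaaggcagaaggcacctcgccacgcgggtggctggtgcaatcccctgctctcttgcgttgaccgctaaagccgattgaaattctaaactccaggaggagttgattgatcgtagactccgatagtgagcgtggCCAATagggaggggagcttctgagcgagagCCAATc
Aldh18a1, chr19:40588464-40588713, minus strand: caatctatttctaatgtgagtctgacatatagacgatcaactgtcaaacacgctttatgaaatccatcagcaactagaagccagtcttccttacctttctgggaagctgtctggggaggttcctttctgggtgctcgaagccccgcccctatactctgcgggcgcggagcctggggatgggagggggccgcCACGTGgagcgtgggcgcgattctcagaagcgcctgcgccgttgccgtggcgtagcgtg
Mthfd2, chr6:83317605-83317854, minus strand: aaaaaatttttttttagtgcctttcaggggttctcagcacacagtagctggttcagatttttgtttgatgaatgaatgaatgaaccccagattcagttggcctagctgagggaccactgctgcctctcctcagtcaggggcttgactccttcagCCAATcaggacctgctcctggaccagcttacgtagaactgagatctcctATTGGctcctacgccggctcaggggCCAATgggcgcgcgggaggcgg
A CCAAT box, the element bound by the factor NF-Y, was present in windows of 7 of the 10 genes (Phgdh, Psat1, Psph, Shmt1, Mthfd1, Mthfd2 and Pycr1), while 41.1% of all 27025 genes with a window hold one. It occurred both before genes that fell (Phgdh, Psat1, Mthfd1) and before genes that did not pass the test (Psph, Shmt1, Mthfd2). In Mthfd2 the boxes began at positions -96, -47 and -22 from the start, and in Phgdh at -193 and -23. The GC box GGGCGG was also found for 7 of the 10 genes, against 38.2% of all genes. Of the motifs for named regulators, TGATGNAA, a core of the composite element bound by Atf4, was found only in the window of Pycr1 (4.51% of all genes). The E-box CACGTG, bound by Myc with Max among others, was found only in that of Aldh18a1 (8.09% of all genes). No window of the 10 genes held the CRE TGACGTCA (2.03% of all genes), the GATA motif AGATAA (12.7%), or the E2F motifs TTTCCCGC (1.24%) and TTTGGCGC (0.585%). All 8 motifs were searched on both strands. No motif of the 8 contains another, and a match describes the letters only.

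In the chain that makes serine, the first and middle enzymes fell in S3 and the last did not pass the test. Phgdh, phosphoglycerate dehydrogenase, the first committed step, read 8.65, 8.77 and 8.04 in S3 and 10.11, 10.07 and 9.93 in S1 by its brightest probe set. All 3 S3 arrays lay more than 1 log2 unit below all S1 arrays. The change was -1.55 ± 0.22 (SE), 2.94-fold lower, with a limma adjusted p of 0.00539. A second Phgdh probe set (1456584_x_at) read 6.48, 6.80 and 6.55 in S3 and 8.42, 8.03 and 8.54 in S1 (change -1.72 ± 0.29 (SE), adjusted p = 0.0127 over probe sets). Another (1426658_x_at) changed by -1.66 ± 0.52 (SE) and missed the threshold (adjusted p = 0.0915). A dim one (1454714_x_at) read 3.08 ± 0.47 in S3 and 3.27 ± 0.85 in S1 (SD, n = 3 each), with overlapping arrays. All 4 have the array maker's suffix for probes that can also match other transcripts, and 2 further probe sets that name Phgdh with a second gene were left out. Phgdh missed the threshold in 1 of 20 alternative analyses, median centring (-1.32, adjusted p = 0.0602).

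Psat1, phosphoserine aminotransferase, the middle step, read 9.61, 9.47 and 9.41 in S3 and 10.40, 10.65 and 10.54 in S1. The spread within each subset was small, and the arrays of S3 and S1 lay clearly apart. The change was -1.03 ± 0.12 (SE), 2.04-fold lower, with a limma adjusted p of 0.00325. The other Psat1 probe set gave -0.98 ± 0.14 (SE) (adjusted p = 0.00818 over probe sets). Psat1 missed the threshold in 3 of 20 alternatives, and all 3 put the arrays on another scale. These were median centring (limma adjusted p = 0.152), a common trimmed mean, and the array class block with median centring (adjusted p = 0.0655). With quantile normalization it passed. Most of the 20 keep the authors' scale, so the tally says little about scaling. Psph, phosphoserine phosphatase, which releases serine, read 9.12, 8.44 and 8.50 in S3 and 8.72, 9.07 and 9.53 in S1. Its arrays overlapped, and the change of -0.43 ± 0.28 (SE) missed the threshold (adjusted p = 0.382). With the array class as a block Psph changed by -0.59 (adjusted p = 0.0231), where 41.2% of all genes were called lower. With median centring added to the block it changed by -0.14 and missed the threshold (adjusted p = 0.770).

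Of the hydroxymethyltransferases, the mitochondrial Shmt2 read 8.71, 8.56 and 8.60 in S3 and 9.67, 9.30 and 9.41 in S1. The subsets did not overlap. The change was -0.84 ± 0.17 (SE), 1.79-fold lower, with a limma adjusted p of 0.0177. Its 3 dimmer probe sets changed in the same direction, with values of -0.85 to -0.39, and missed the threshold (adjusted p = 0.188 to 0.669 over probe sets). The brightest carries the suffix for shared probes, and the single Shmt2 probe set without that suffix (1426423_at) read 8.49, 7.32 and 8.27 in S3 and 8.28, 7.87 and 9.12 in S1, with overlap. Shmt2 missed the threshold in 10 of 20 alternatives, among them every one that put the arrays on another scale.

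The cytosolic Shmt1 gave values that differed between its 4 probe sets. The brightest (1425177_at) read 6.36, 5.20 and 6.54 in S3 and 6.91, 5.53 and 8.02 in S1. The lowest array of each subset was a short one and the arrays overlapped, with a change of -0.79 ± 0.68 (SE) (adjusted p = 0.528). Another (1425179_at) read 5.10, 4.24 and 4.73 in S3 and 6.91, 6.75 and 7.88 in S1, with every S3 array below every S1 array. It fell by 2.49 on the log2 scale, 5.61-fold lower (SE 0.47, limma adjusted p = 0.0187 over probe sets), the largest change of the 26. The remaining 2 changed by -1.76 ± 0.88 and -1.34 ± 0.66 (SE) and missed the threshold (adjusted p = 0.279 and 0.273). Array class moved with these values: within S1 the long array exceeded the short ones by 1.80 for the brightest, and within S3 by 1.25. With array class as a block all 4 Shmt1 probe sets were called lower (-2.78 to -1.30, adjusted p = 1.04e-04 to 0.0198), against 34.2% of all probe sets.

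**Figure D2:**
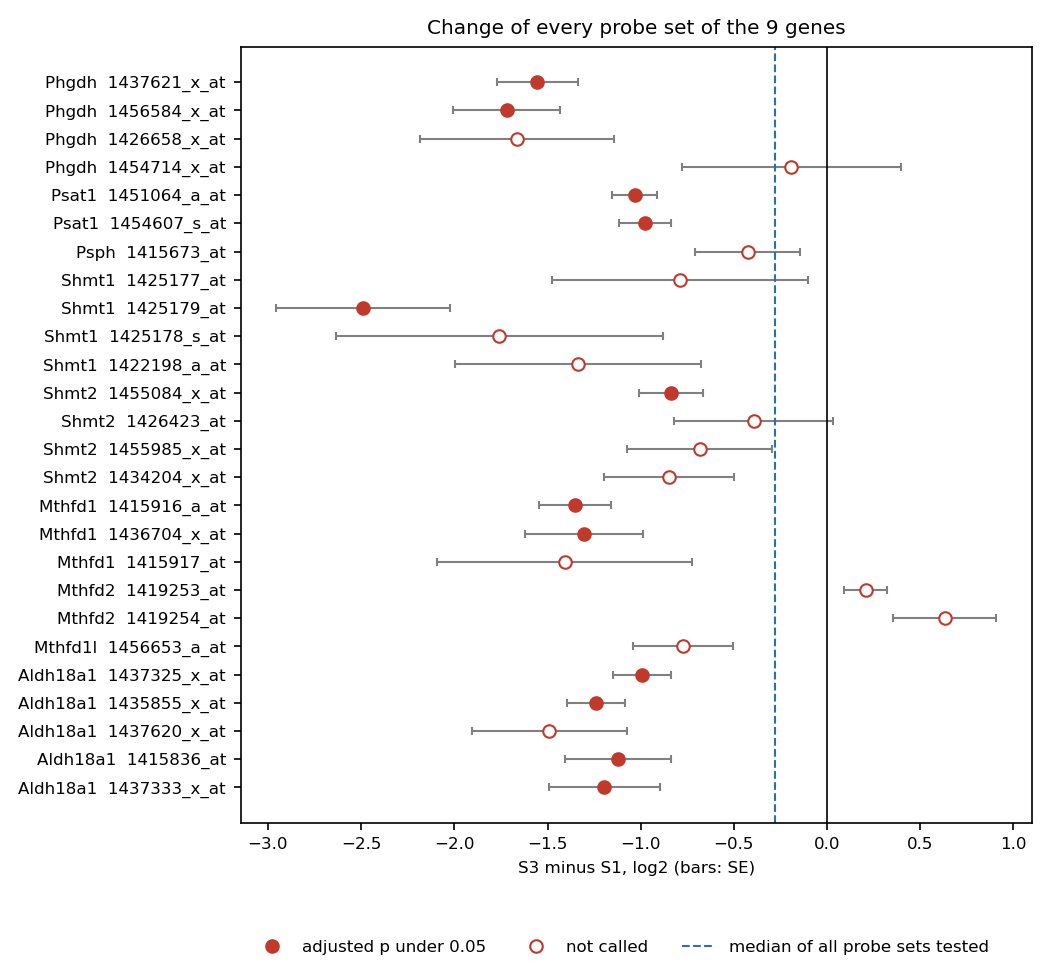
S3 minus S1 on the log2 scale (horizontal axis) for all 26 probe sets, with SE bars from the fit over 22428 probe sets. Filled points have an adjusted p under 0.05, and the dashed line is the median of all probe sets tested (-0.28). Of the 26, 12 are called lower, and the 2 Mthfd2 probe sets are the only ones right of 0.

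Among the folate enzymes Mthfd1 fell in S3, and Mthfd2 and Mthfd1l did not pass the test. Mthfd1, the cytosolic enzyme with synthetase, cyclohydrolase and dehydrogenase activities, read 9.13, 8.52 and 9.02 in S3 and 10.33, 10.07 and 10.33 in S1. The subsets lay apart by nearly a log2 unit at their closest arrays. The change was -1.35 ± 0.19 (SE), 2.56-fold lower, with a limma adjusted p of 0.00552. A second probe set (1436704_x_at), which carries the suffix for shared probes, changed by -1.31 ± 0.32 (SE) (adjusted p = 0.0423 over probe sets). The third (1415917_at) changed by -1.41 ± 0.69 (SE) and missed the threshold, with S3 replicate 2, a short array, at 5.66 and the other S3 arrays at 7.84 and 7.82. Mthfd1 missed the threshold in 1 of 20 alternatives, the mean of its probe sets (-1.36, adjusted p = 0.0614).

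Mthfd2, the mitochondrial dehydrogenase and cyclohydrolase that is high in many dividing cells, read 10.08, 9.98 and 10.14 in S3 and 9.83, 9.78 and 9.97 in S1. The lowest S3 array stood only just above the highest S1 array. The change of 0.21 ± 0.11 (SE) missed the threshold (limma adjusted p = 0.268). The other probe set read 9.14, 8.65 and 9.28 in S3 and 8.27, 8.07 and 8.84 in S1, with overlap (0.63 ± 0.28 (SE), adjusted p = 0.214 over probe sets). With array class as a block this probe set passed (0.43, adjusted p = 0.0300), where 4.86% of all probe sets were called higher. The sign of Mthfd2 was positive, and that of the other 8 genes negative, in the main analysis and all 20 alternatives. Some of these, the other filters, the other variance settings and the replicate block, leave a gene's change as it was. They could therefore not alter its sign.

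Mthfd1l, the mitochondrial synthetase that makes formate, read 8.53, 7.88 and 8.34 in S3 and 9.04, 8.68 and 9.36 in S1. Every S3 array lay below every S1 array, by a small margin, and the change of -0.77 ± 0.26 (SE) missed the threshold (adjusted p = 0.0942). With array class as a block it passed (-0.95, adjusted p = 5.43e-04), where 41.2% of all genes were called lower. With median centring added to the block Mthfd1l changed by -0.50 and missed the threshold (adjusted p = 0.194).

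A ratio between 2 genes on the same array is not moved by a factor common to all genes of that array, such as the one median centring applies. The log2 ratio of Mthfd1 over Mthfd2 was -0.95, -1.46 and -1.13 in S3 and 0.49, 0.30 and 0.36 in S1. All S3 arrays lay below all S1 arrays, by 2.95-fold on average (difference -1.56, two-sided exact permutation p = 0.1, adjusted p = 0.15 over 3 ratios). With 3 against 3 arrays 0.1 is the smallest p this test can give. The ratio of Mthfd1 over Mthfd1l was 0.60, 0.64 and 0.68 in S3 and 1.28, 1.40 and 0.98 in S1, again without overlap (difference -0.58, exact permutation p = 0.1). Within the long arrays these 2 differences were -1.40 and -0.34, and within the short arrays -1.85 and -0.70. The ratio of Shmt1 over Shmt2 was -2.59 ± 0.68 in S3 and -2.64 ± 1.20 in S1 (SD, n = 3 each), with overlap (difference 0.05, exact permutation p = 1). That difference was -0.90 with the mean over each gene's probe sets. The planned ratio of Aldh18a1 over Pycr1 was not computed, since Pycr1 is not analysed here.

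**Figure D3:**
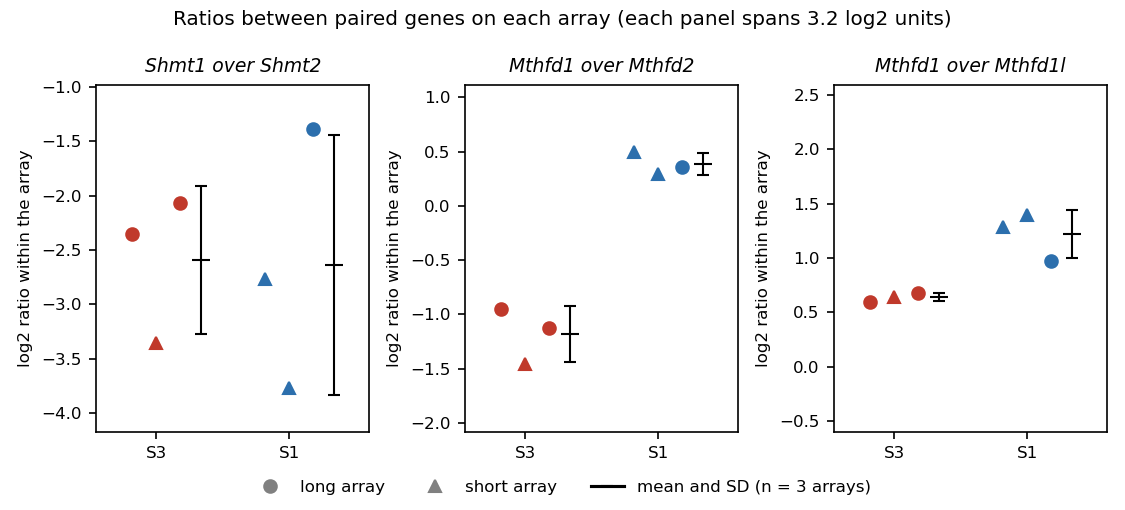
Log2 ratio between 2 genes on the same array (vertical axis), for the 3 S3 arrays (red, left) and the 3 S1 arrays (blue, right), with circles for long and triangles for short arrays and a bar for the mean and SD of 3 arrays. Mthfd1 over Mthfd2 averages -1.18 in S3 and 0.38 in S1, and Shmt1 over Shmt2 overlaps between the subsets.

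Of proline synthesis, Aldh18a1, the enzyme that makes pyrroline-5-carboxylate from glutamate, fell in S3. Its brightest probe set read 8.88, 8.85 and 9.10 in S3 and 9.86, 9.83 and 10.11 in S1. The subsets did not overlap. The change was -0.99 ± 0.15 (SE), 1.99-fold lower, with a limma adjusted p of 0.00679. Every S3 array was below every S1 array for all 5 Aldh18a1 probe sets, and 4 of them fell, with changes of -1.24 to -0.99. The fifth (1437620_x_at) changed by -1.49 ± 0.42 (SE) (adjusted p = 0.0656 over probe sets). The single probe set without the suffix for shared probes (1415836_at) was among those that fell (-1.12 ± 0.28 (SE), adjusted p = 0.0474). Aldh18a1 missed the threshold in 2 of 20 alternatives, both of which rescale the arrays. These were median centring (limma adjusted p = 0.137) and the array class block with median centring (adjusted p = 0.0693). With quantile normalization and the trimmed mean it passed.

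The change was set side by side within the array classes, although each holds a lone array of one subset. On the long arrays (2 S3, 1 S1) 23 of 26 probe sets were lower in S3, and on the short arrays (1 S3, 2 S1) 24 of 26 were. The median change of all genes was also below 0 there, at -0.59 on long and -0.49 on short arrays. The Phgdh, Psat1, Mthfd1 and Aldh18a1 probe sets that fell over all arrays were lower by at least 1 log2 unit in each class. The Mthfd2 probe sets were higher in S3 in both classes, by 0.14 and 0.37 on long and 0.17 and 0.48 on short arrays.

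**Figure D4:**
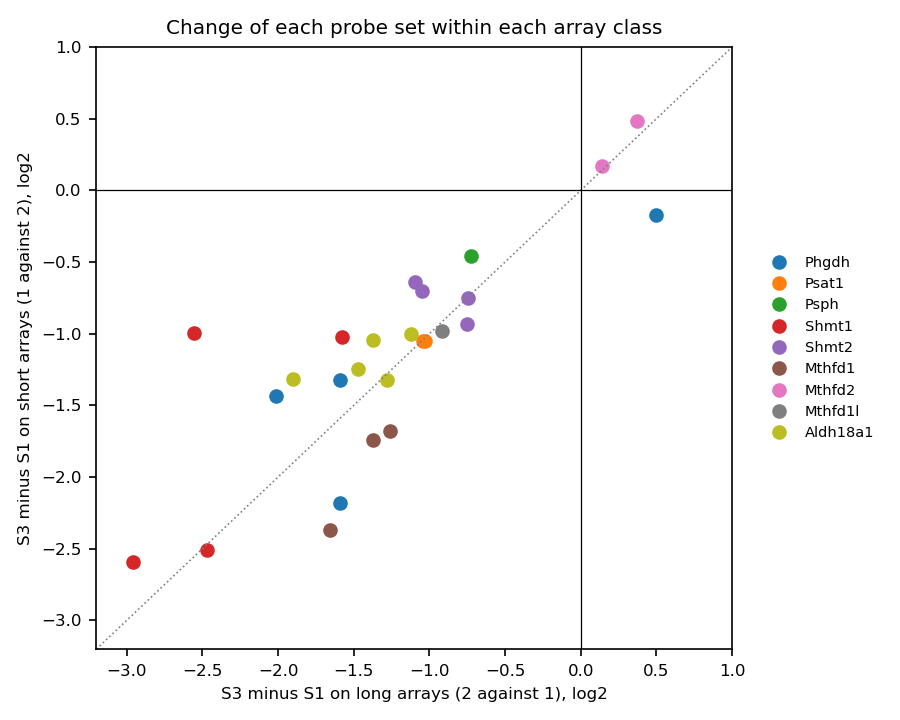
S3 minus S1 on the log2 scale for each of the 26 probe sets on the long arrays (horizontal axis, 2 S3 and 1 S1 array) and on the short arrays (vertical axis, 1 S3 and 2 S1 arrays), coloured by gene, with the line of equality dotted. Mthfd2 lies above 0 on both axes, and 1 dim Phgdh probe set is above 0 on the long arrays alone.

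Related genes were described in 4 lists, with 61 tested genes in all, of which 10 fell and 2 rose, close to the shares of all genes tested (12.8% lower, 2.53% higher). Of 14 tested folate and one-carbon partners, 4 fell and none rose (12.8% and 2.53% of all genes), with a median log2 change of -0.87, against -0.33 for all genes. Slc19a1, the reduced folate carrier, read 5.59, 6.51 and 5.56 in S3 and 8.68, 8.51 and 8.90 in S1 (change -2.81 ± 0.35 (SE), limma adjusted p = 0.00432). Fpgs, which adds the glutamate chain that keeps folate in the cell, read 3.37, 3.18 and 3.43 in S3 and 6.60, 5.89 and 7.05 in S1 (-3.19 ± 0.43 (SE), adjusted p = 0.00491). Slc25a32, the mitochondrial folate carrier (-1.88 ± 0.36 (SE), adjusted p = 0.0159), and Ahcy, which clears S-adenosylhomocysteine (-0.56 ± 0.11 (SE), adjusted p = 0.0151), also fell. Slc19a1 and Fpgs passed in all 20 alternatives, and Slc25a32 missed the threshold in 4 and Ahcy in 9.

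Of 19 tested genes of serine and glycine use and carriage, 3 fell and 2 rose, with a median of -0.61; 12.8% of all genes fell and 2.53% rose. The risers were the first enzyme of red cell heme synthesis and a glycine transporter. Alas2, which joins glycine to succinyl-CoA, read 10.39 ± 0.27 in S3 and 5.51 ± 0.88 in S1 (SD, n = 3 each; adjusted p = 0.00279). Slc6a9, the plasma membrane glycine transporter GlyT1, read 10.33, 10.20 and 10.26 in S3 and 8.45, 8.45 and 8.75 in S1 (1.71 ± 0.14 (SE), limma adjusted p = 0.00252). Gcsh, the lipoyl carrier protein of the glycine cleavage system, read 7.71, 7.10 and 7.24 in S3 and 9.39, 9.64 and 9.99 in S1 (-2.32 ± 0.26 (SE), adjusted p = 0.00310). Sfxn1, a mitochondrial serine transporter, fell by a smaller amount (-0.66 ± 0.16 (SE), adjusted p = 0.0344). The third faller, Ptdss1, a phosphatidylserine synthase, was named only after its values had been seen (-0.64 ± 0.16 (SE), adjusted p = 0.0385). Slc6a9, Alas2 and Gcsh passed in all 20 alternatives, while Sfxn1 and Ptdss1 each missed the threshold in 12.

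Of 13 tested proline, glutamate and ornithine partners, 2 fell, a share near the 12.8% of all genes, and none rose, with a median of -1.15. Prodh, proline dehydrogenase, the first enzyme of proline breakdown, read 2.05, 2.26 and 1.61 in S3 and 5.57, 4.81 and 5.38 in S1 (-3.28 ± 0.44 (SE), adjusted p = 0.00481). Background on the same S3 arrays was 1.01, 1.21 and 1.52, so the S3 signal of Prodh was low and the size of its fall is uncertain. Gpt2, mitochondrial alanine aminotransferase, changed by -1.68 ± 0.33 (SE) (adjusted p = 0.0170, missed in 6 of 20 alternatives). Of 15 tested amino acid response genes, a list of Atf4 and genes known as its targets, 1 fell and none rose, with a median of 0.04, where 12.8% of all genes fell. The faller was Eif4ebp1, a repressor of cap-dependent translation (-1.74 ± 0.30 (SE), adjusted p = 0.00998).

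**Figure D5:**
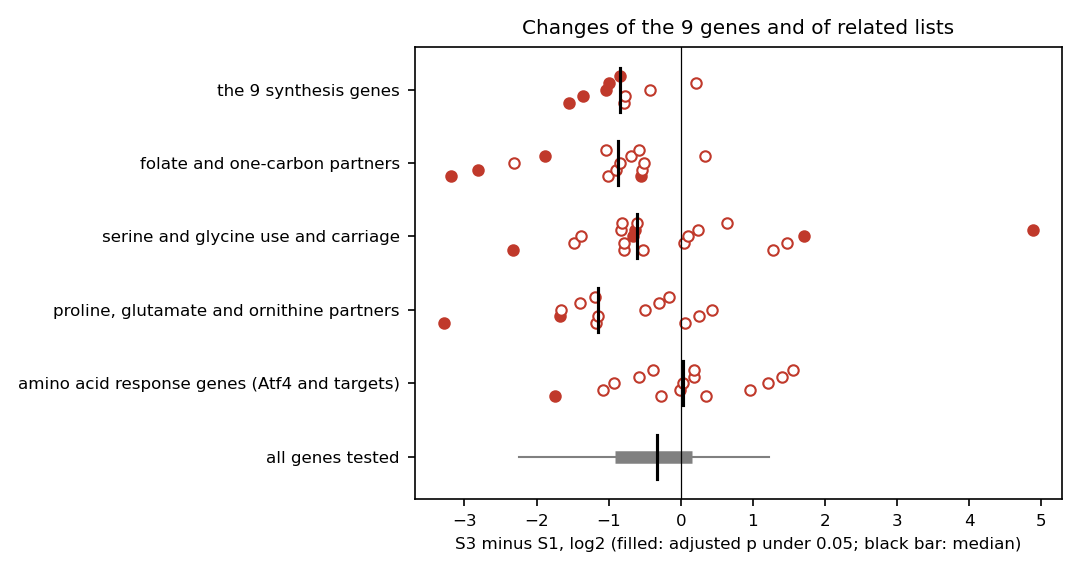
S3 minus S1 on the log2 scale for each tested gene of the 9-gene set and of the 4 related lists, filled where the adjusted p is under 0.05, with a black bar at each median. The grey bar below spans the 25th to 75th and the line the 5th to 95th percentile of all 11959 genes. Medians are -0.84 for the 9 genes, -0.87, -0.61, -1.15 and 0.04 for the lists, and -0.33 for all genes.

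The genes outside the set whose 6-array profile was most like that of Phgdh were Prtn3 (Pearson's r = 0.998), Bcs1l (0.997) and Cuta (0.996), a description over 6 arrays that share the subset difference. Bcs1l, an assembly factor of respiratory complex III, read 7.29 ± 0.35 in S3 and 8.84 ± 0.16 in S1, and Cuta 8.54 ± 0.23 in S3 and 9.39 ± 0.09 in S1 (SD, n = 3 each). Prtn3, a granulocyte protease, read 0.99, 1.54 and 0.02 in S3 and 3.99, 3.79 and 3.58 in S1. On S3 replicates 1 and 3 it was not above background (1.01 and 1.52), so its r and its rank rest in part on values with no measured level. It is 1 of the 6 granulocyte markers summed above, and its part in the Phgdh values was not tested. Within the set, Pearson's r between the brightest probe sets ran from -0.89 to 0.96 over 36 gene pairs, with 7 below 0.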

How the data were processed

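RNA of sorted cells was amplified and biotin-labelled with Ovation reagents and hybridised to Affymetrix mouse arrays, per the labels and the design text. The deposited log2 signals were computed by the authors in MAS5 and scaled to control probe sets of 18S RNA, Gapdh and beta-actin, per the design text. The MAS5 version is not given in the sources used here, and the log base, taken as 2 from the range of values, is not stated either.

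Of 45101 probe sets, the platform annotation gives 34945 a single symbol and 932 several, 64 being array controls and 9160 unnamed. RefSeq's gene table (GRCm38.p6) held an identifier for 34741, and 0 symbols changed. Probe sets with 1 symbol and a mean over the 40th percentile were tested: 22428 probe sets, or 11959 genes by their brightest probe set. The whole table was fitted in limma 3.58.1 under R 4.3.3 (two-sided moderated test with an intensity trend, 4 residual and 3.41 prior degrees of freedom). Adjustment was by Benjamini-Hochberg with a threshold of 0.05. Precision is limited by the number of arrays.

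The genes, lists, tests, array classes and alternatives were chosen with earlier results of these data known. Named genes are all 9 measured members, up to 4 called genes of each related list with the smallest p, and the 3 genes most like Phgdh. Of 76 related genes listed, 67 had a probe set and 61 were tested. Array class was split at an actin 5' minus 3' difference of -1.5. Alternatives were 3 other scalings, other filters, a pseudocount, other variance settings, the mean of a gene's probe sets, blocks, each array class alone and leaving out each array.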

Additional observations from a re-analysis of the deposited data

How the results depend on the processing

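Over the 9 genes and 20 alternatives, 155 values kept their sign and side of the threshold, 17 lost the call, 8 gained it and 0 changed sign. Other filters, other variance settings and the replicate block leave each gene's change as it was, so no sign could turn there. The number of genes called lower in S3 (5 over all arrays) was 1 with median centring, 3 with a common trimmed mean or the mean of a gene's probe sets, 2 with the array class block plus median centring, and 8 with the array class block or on the long arrays alone. Without 1 array it ranged from 4 to 5, and none was called higher in any alternative. The median change of all genes was -0.33 at the authors' scale, -0.10 with median centring, -0.07 with quantile normalization and -0.06 with the trimmed mean, and higher calls made up 16.5% of all calls at the authors' scale but 33.0%, 38.2% and 35.1% under these. Median centring and the trimmed mean shift all genes of an array alike. They therefore cannot move the gap between the 9 genes' median and that of all genes (-0.50). With quantile normalization, which can move it, the gap was -0.52. Probe sets called lower (12, where 8.12% of all probe sets were) were 2 with median centring (5.4%) and 23 with the array class block (34.2%). They were 5 with no intensity trend and 23 on long arrays alone. For these 2 settings and for leaving out 1 array, the share of all probe sets is not given here. Of all genes, 10.5% were called lower with no intensity trend. Probe sets called lower were 3 to 8 without 1 array: 3 without S1 replicate 1 or 2, 6 without S3 replicate 3, 7 without S3 replicate 1, and 8 without S1 replicate 3 or S3 replicate 2. Probe sets called higher (0, also without 1 array) were 1 with quantile normalization or the trimmed mean. They were also 1 with the array class block (4.86% of all probe sets) or this block with median centring (7.13%).

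The share of all genes tested that was called also moved with the setting: lower calls were 12.8% of all genes at the authors' scale, 41.2% with the array class block, 34.7% on long and 21.7% on short arrays, and higher calls 2.53%, 5.81%, 5.16% and 2.82%. Without 1 array, lower calls were 4.52% to 10.6% of all genes. Folate partners called lower (4) were 12 with the array class block, 11 on long arrays and 2 to 5 without 1 array. Serine and glycine genes called lower (3) were 1 with median centring, no filter, no intensity trend or the mean of probe sets, 11 with the class block, 9 on long arrays and 1 to 2 without 1 array. Those called higher (2) were 4 with quantile normalization, the replicate block, or long or short arrays alone, 5 with the class block with or without median centring, and 2 to 3 without 1 array. Proline partners called lower (2) were 1 with quantile normalization or the mean of probe sets, 10 with the class block, 6 with this block and median centring or on short arrays, 9 on long arrays and 1 to 2 without 1 array. Of them, 1 was called higher with the trimmed mean or the class block with median centring. Amino acid response genes called lower (1) were 0 with the mean of probe sets, 4 with the class block, 3 on long arrays and 0 to 1 without 1 array. Those called higher (0) were 2 with median centring, 3 with quantile normalization, the trimmed mean or the class block, 4 with this block and median centring, and 0 to 1 without 1 array.

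The difference in Shmt1 over Shmt2 (0.05) turned to -0.90 with the mean of probe sets, -0.82 on long and -0.092 on short arrays, and ran from -0.52 to 0.68 without 1 array (-0.015 without S1 replicate 1, -0.52 without S1 replicate 2, -0.072 without S3 replicate 1 and -0.21 without S3 replicate 3). Without 1 array, Mthfd1 over Mthfd2 ran from -1.68 to -1.42 and Mthfd1 over Mthfd1l from -0.70 to -0.49. Under quantile normalization, added for the ratios after seeing the data, the 3 differences were 0.13 for Shmt1 over Shmt2, -1.52 for Mthfd1 over Mthfd2 and -0.67 for Mthfd1 over Mthfd1l. The dim Phgdh probe set 1454714_x_at (-0.19) turned to 0.040 with median centring, 0.063 with quantile normalization, 0.081 with the trimmed mean, 0.16 with the class block, 0.61 with this block and median centring, 0.49 on long arrays, 0.18 without S1 replicate 2 and 0.031 without S3 replicate 3, and its lowest value was -0.66, without S1 replicate 3. It was called in none of these. The causes were not tested.

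The replicate number as a block gave 6 genes called lower, adding Mthfd1l, where 15.9% of all genes were called lower (12.8% without the block). It gave 14 probe sets called lower. The share of all probe sets under this block is not given here. Deviations of arrays with the same number correlated at -0.19, 0.36 and 0.43. The replicate 2 arrays are both short and the replicate 3 arrays both long. The check can therefore not tell whether the numbers pair the arrays.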

Other observations

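RNA levels are also given for some regulators and carriers outside the naming rule, chosen after their values were seen. The activity of their proteins was not measured. Atf4, the transcription factor of the amino acid response, read 9.88, 9.32 and 10.09 in S3 and 9.27, 9.14 and 10.32 in S1, with overlap (0.18 ± 0.34 (SE), limma adjusted p = 0.792). Asns, asparagine synthetase, a known Atf4 target, read 10.79 ± 0.08 in S3 and 10.75 ± 0.05 in S1 (SD, n = 3 each; adjusted p = 0.816). Trib3 (1.41 ± 0.45 (SE), adjusted p = 0.0792) and Ddit3 (1.21 ± 0.48 (SE), adjusted p = 0.144) missed the threshold. Both passed with median centring (adjusted p = 0.0345 and 0.0264) and with the array class block (adjusted p = 0.0125 and 0.0114). With that block Atf5 was also called higher (0.67, adjusted p = 0.0289), and 4 genes of the same list were called lower: Eif4ebp1 (-1.91, adjusted p = 4.09e-05), Cebpg (-0.65, adjusted p = 0.0140), Ddit4 (-1.34, adjusted p = 0.0220) and Sesn2 (-1.01, adjusted p = 0.0268). Of all genes, 41.2% were called lower and 5.81% higher with it.

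Slc25a38, the mitochondrial carrier that supplies glycine for heme synthesis, read 8.94, 8.05 and 8.74 in S3 and 6.59, 6.89 and 7.85 in S1. Every S3 array was above every S1 array, and the change of 1.47 ± 0.41 (SE) stood just beyond the threshold (limma adjusted p = 0.0509). It missed the threshold in 8 of 20 alternatives. Mthfd2l, a mitochondrial relative of Mthfd2, read 3.10, 2.15 and 3.71 in S3 and 5.38, 4.03 and 6.47 in S1, also without overlap (-2.31 ± 0.72 (SE), adjusted p = 0.0718). It changed by -2.81 with the array class block (adjusted p = 5.35e-04), where Mthfd2 changed by 0.16 (adjusted p = 0.194) and 41.2% of all genes were called lower. The difference between Mthfd2l and Mthfd2 was not tested.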
